A study of Sus scrofa with 20 samples.

Results

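The arrays with the most and the least PDK4 signal in pig back muscle were compared with each other. PDK4 is pyruvate dehydrogenase kinase 4, and 7 arrays of high and 7 arrays of low PDK4 were taken from the 20 arrays of the series. The study measured the longissimus muscle of 20 female pigs, 10 of low and 10 of high residual feed intake (RFI), with 1 Affymetrix Snowball array per sample; RFI is the feed eaten beyond the amount predicted from growth and maintenance. The labels name no treatment and give no breed, age, litter or feeding state. Each array was taken as 1 animal, since the series describes 10 pigs per group.

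PDK4 phosphorylates the pyruvate dehydrogenase complex in the mitochondrion and switches it off, so that less pyruvate from glucose enters the TCA cycle. In muscle it is known to be induced in fasting, by fatty acids acting through the PPAR receptors, by the coactivator PGC-1α (gene PPARGC1A), by glucocorticoids and by FOXO1, and to be repressed by insulin. A muscle with much PDK4 is therefore usually described as burning fat and sparing glucose.

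The 14 arrays were chosen on a measured value and not on a label. The deposited log2 signal of every gene, taken from its probe set of highest mean, was regressed on the array's mean signal of the 69 background control probe sets, which match no transcript. The residual of PDK4 was the score, and the arrays were ranked on it without regard to RFI. Signals below are given as background-adjusted signals, that is the residual plus the gene's mean over the 20 arrays, on the log2 scale. The high PDK4 set held 5 high RFI and 2 low RFI arrays and the low PDK4 set 2 high RFI and 5 low RFI arrays, with 3 of each among the 6 arrays in between.

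By this choice, the adjusted PDK4 signal ranged from 8.43 to 9.56 (median 8.76) in the high set and from 7.09 to 7.90 (median 7.67) in the low set, and the 6 middle arrays lay between 7.94 and 8.41. The means were 8.85 ± 0.43 (SD, n = 7) and 7.53 ± 0.32 (SD, n = 7), a gap of 1.33. The array just inside the high set scored 0.266 and the array just outside it 0.252, while the array just outside the low set scored -0.226 and the array just inside it -0.261. The edges of the sets therefore ran through a continuous range of arrays. The highest score belonged to high RFI replicate 2 and the lowest to low RFI replicate 8, numbers given here within each RFI group only to name the arrays.

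The adjustment for background shaped this ranking. As deposited, the PDK4 signal fell with the background of the array (Pearson r = -0.79, permutation p = 4e-05, adjusted 0.00012 over 3 relations computed; Spearman rho = -0.80, permutation p = 9e-05, adjusted 0.00027, n = 20), and r was -0.66 without the 2 arrays of most extreme background (n = 18). The deposited signal ranged from 7.85 to 9.65 in the high set and from 5.75 to 8.74 in the low set, so that the sets overlapped before the adjustment. Background itself ranged from 3.47 to 3.88 in the high set and from 3.46 to 3.90 in the low set.

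**Figure D1:**
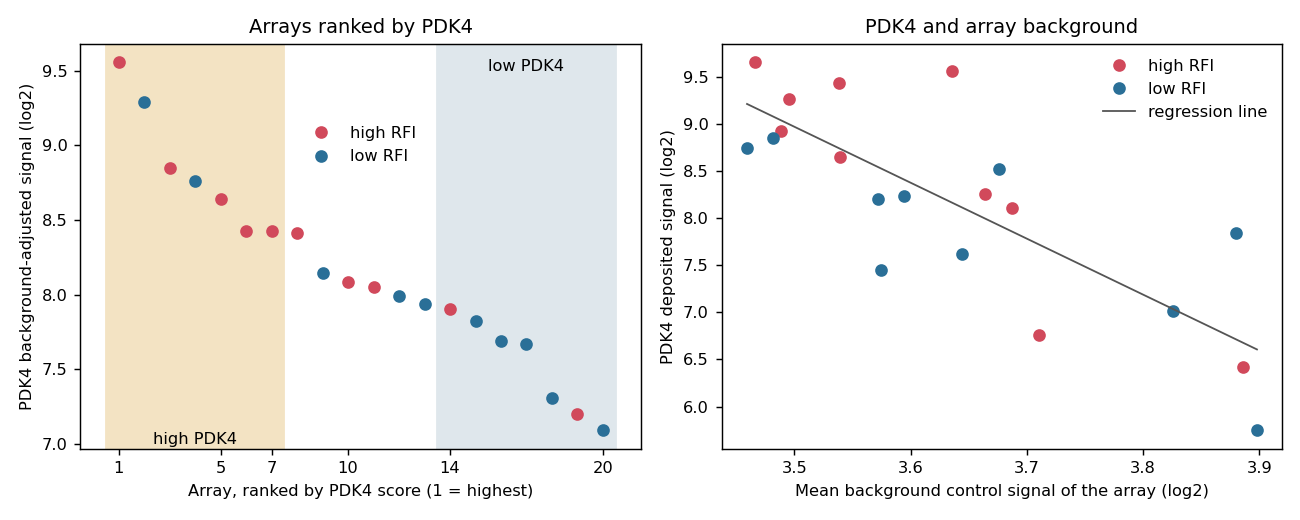
Left, background-adjusted PDK4 signal (log2) of the 20 arrays ranked from highest to lowest score, coloured by RFI group, with the 7 high and 7 low PDK4 arrays shaded. Right, the PDK4 signal as deposited (log2) against the mean background control signal of the array (log2) with the regression line, along which r is -0.79.

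The array carried 2 probe sets for PDK4. The one used had a mean of 8.16. The other had a mean of 1.96, below the mean background control signal of 3.64, and ranged from 1.62 to 2.12 in the high set and from 1.45 to 2.50 in the low set. Its adjusted signal did not follow the score (Pearson r = -0.019, permutation p = 0.936; Spearman rho = -0.071, permutation p = 0.768, n = 20), and r was 0.023 without the 2 arrays of most extreme score (n = 18). The dim probe set thus gave no second reading of PDK4, and the sets rest on 1 probe set. Sets ranked on the dim probe set instead shared 2 high and 2 low arrays with the ones used here; between them 0 genes passed limma's test (535 with an unadjusted p under 0.05), and 1 of the 16 genes described below had the same direction.

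The score leaned towards high RFI, but a permutation test did not separate the means of the 2 RFI groups. The 10 high RFI arrays averaged 0.19 ± 0.62 (SD) and the 10 low RFI arrays -0.19 ± 0.65 (SD) (permutation p = 0.195, 2-sided, over 100000 resamples).

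The question put to the remaining genes was which of them stood higher or lower with PDK4. Of 12118 genes tested, 16 passed limma's test between the sets at an adjusted p under 0.05, which is 0.132%. Of these, 14 were higher with PDK4 (0.116%) and 2 were lower (0.0165%), with differences from 0.59 to 1.25 for the 14. With unadjusted p under 0.05 there were 865 higher (7.14%) and 751 lower (6.20%) genes. For 97.7% of the tested genes the 95% interval of the difference excluded a 2-fold change of the signal, and over all tested genes the median difference was -0.01, with 47.9% above 0. When every array was used and the score was fitted as a continuous term, 246 genes passed (2.03%), 178 rising (1.47%) and 68 falling (0.561%) with PDK4; 14 of the 16 were among them. The count of 16 moved to between 2 and 174 when 1 array was left out. The extremes were low RFI replicate 1 and low RFI replicate 5. An exact rank sum test called 0 genes (1230 with an unadjusted p under 0.05, smallest adjusted p 0.183). With 7 arrays a side its p-values have a lower limit. It therefore cannot call a few genes among 12118, however well the sets separate, and does not decide on the 16. The 16 kept their direction when the leading axis of variation of the residuals was added to the fit, but 0 passed limma's test then, and 928 genes had an unadjusted p under 0.05. That axis carried 13.4% of the variance of all genes and ran with the PDK4 score (Pearson r = 0.71, permutation p = 0.00047, adjusted 0.000705; Spearman rho = 0.68, permutation p = 0.00141, adjusted 0.00211; r = 0.62 without the 2 arrays farthest along it), so that a relation to PDK4 and a relation to this axis cannot be told apart.

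PPARGC1A, the coactivator of mitochondrial and fatty acid oxidation genes and a known inducer of PDK4, rose with it. Its signal ranged from 9.0 to 10.12 (median 9.13) in the high set and from 7.78 to 8.92 (median 8.18) in the low set. Every high PDK4 array thus lay above every low PDK4 array, and the difference was 1.1 ± 0.21 (SE; adjusted p = 0.0417), a 2.15-fold difference of the signal. The gene had 8 probe sets, of which 7 were higher with PDK4, and the dimmer ones differed by 0.90 on average. With RFI as a covariate the difference was 1.07 and the adjusted p 0.0687.

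Of the 16 genes only PPARGC1A belongs to a gene list used here, so the others are described singly. SLC19A2, a thiamine transporter whose substrate becomes the cofactor of the pyruvate dehydrogenase complex, showed the largest rise. It ranged from 6.76 to 8.27 (median 7.04) against 5.59 to 6.59 (median 6.19), without overlap, a difference of 1.25 ± 0.23 (adjusted p = 0.0317). NAMPT, the rate-limiting enzyme of NAD salvage, ranged from 6.27 to 7.40 (median 7.10) against 5.74 to 6.39 (median 6.10), and rose by 0.98 ± 0.16 (adjusted p = 0.0200). Here 6 of the 7 high arrays lay above every low array.

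Among the further genes that passed were MAPK6, RCAN1 and HIPK3. MAPK6, the atypical MAP kinase ERK3, ranged from 5.84 to 6.83 (median 6.39) in the high set and from 4.60 to 5.62 (median 5.15) in the low set, a rise of 1.23 ± 0.18 (adjusted p = 0.0122). RCAN1, an inhibitor of the calcium-dependent phosphatase calcineurin, ranged from 8.84 to 9.54 (median 9.02) against 7.78 to 8.63 (median 8.29), a rise of 0.81 ± 0.14 (adjusted p = 0.0204). Neither gene overlapped between the sets. HIPK3, a nuclear protein kinase, ranged from 5.28 to 6.27 (median 5.88) against 3.89 to 5.39 (median 4.71), with 1 high array inside the low range, and rose by 1.12 ± 0.19 (adjusted p = 0.0204).

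The other genes higher with PDK4 had various known roles. FILIP1, which binds the actin cross-linker filamin, ranged from 6.25 to 7.15 (median 6.60) against 5.17 to 6.12 (median 5.47), a rise of 1.08 ± 0.16 (adjusted p = 0.0122). LMOD3, the leiomodin that nucleates the thin filaments of the sarcomere, ranged from 6.45 to 7.54 (median 7.10) against 5.18 to 6.60 (median 6.0), a rise of 1.06 ± 0.20 (adjusted p = 0.0355). FILIP1 did not overlap between the sets, and LMOD3 had 1 high array inside the low range. LRRC2, a leucine-rich repeat protein, ranged from 7.03 to 7.95 (median 7.18) against 5.11 to 6.54 (median 6.45), a rise of 1.17 ± 0.20 (adjusted p = 0.0204). CCT6A, a subunit of the chaperonin that folds actin and tubulin, ranged from 6.48 to 7.14 (median 6.75) against 6.07 to 6.35 (median 6.15), a rise of 0.59 ± 0.11 (adjusted p = 0.0354). LRRC2 and CCT6A were also free of overlap. KPNA3, an importin of nuclear transport, ranged from 7.57 to 8.44 (median 8.29) against 7.11 to 7.88 (median 7.39), and rose by 0.74 ± 0.14 (adjusted p = 0.0471), with 1 high array inside the low range. Further risers had means over the 20 arrays below the mean background control signal, so that their sizes are uncertain. They were AP4S1, a subunit of the AP-4 coat adaptor, at 0.63 ± 0.11 (adjusted p = 0.0204), and GKAP1, an anchoring protein of protein kinase G, at 0.68 ± 0.13 (adjusted p = 0.0417). Some risers had a second, dimmer probe set, which differed by 0.92 for SLC19A2. For other risers it differed far less than the one used, by 0.11 for CCT6A, 0.10 for NAMPT, 0.05 for KPNA3 and 0.04 for LRRC2. The rises of these genes thus rest on 1 probe set each.

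The genes that fell with PDK4 were S100A13, a small calcium-binding protein involved in the release of FGF1, and CLU, the secreted chaperone clusterin. S100A13 ranged from 5.73 to 6.66 (median 6.20) in the high set and from 6.96 to 8.31 (median 7.34) in the low set. All 7 high arrays lay below all 7 low arrays, the difference was -1.29 ± 0.20 (adjusted p = 0.0200), and its dimmer probe set differed by -1.31. CLU ranged from 7.48 to 8.01 (median 7.71) against 8.16 to 8.76 (median 8.46), also without overlap, a difference of -0.75 ± 0.13 (adjusted p = 0.0204). Among the 16 genes, the sets did not overlap in 8 of the 14 risers and in both genes that fell. Over all tested genes, 16 were higher without overlap (0.132%) and 21 lower (0.173%).

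**Figure D2:**
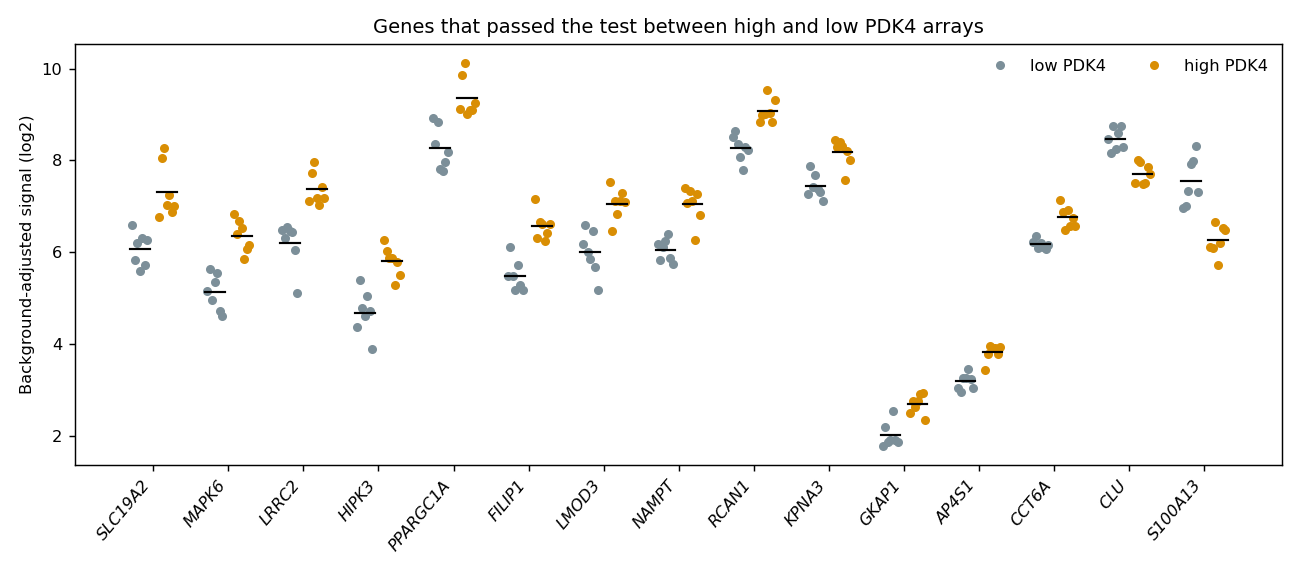
Background-adjusted signal (log2) of 15 of the 16 genes that passed the test, in the 7 low PDK4 arrays (grey) and the 7 high PDK4 arrays (orange), ordered by difference. Each point is 1 array and each black bar the mean of a set; SLC19A2 at the left differed by 1.25 and S100A13 at the right by -1.29.

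The fuel genes beyond PPARGC1A were read next, and a few of them rose over all 20 arrays without passing between the sets. Of all tested genes 246 passed over the 20 arrays, but 20 without the arrays of highest and lowest score. Which of the genes below were among those 20 is not given here. CD36, the fatty acid transporter of the cell surface, ranged from 6.03 to 7.43 (median 6.62) in the high set and from 5.09 to 6.61 (median 5.70) in the low set. The sets overlapped and the difference of 0.89 ± 0.22 did not pass (adjusted p = 0.0933), but over the 20 arrays CD36 rose by 0.68 ± 0.11 per unit of PDK4 score (adjusted p = 0.0030, r = 0.80). HADHA, a subunit of the trifunctional protein of β-oxidation, rose over the 20 arrays with a slope of 0.28 ± 0.07 (adjusted p = 0.0398). Among the 26 genes of fatty acid uptake and oxidation, 16 were higher with PDK4 and 10 lower, none passed between the sets, and 3 passed over all arrays, beside 2.03% of all genes. The median difference was 0.08, beside -0.01 over all genes, and -0.07 with the leading axis as a covariate. The member not yet named among the 3 was ACSL1, which activates long-chain fatty acids (slope adjusted p = 0.0210; named after its values were seen). ACADM, the medium-chain acyl-CoA dehydrogenase, differed by 0.40 ± 0.12 (adjusted p = 0.138).

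The carnitine palmitoyltransferases, which bring long-chain fatty acids into the mitochondrion, overlapped between the sets. CPT1B, the muscle form, ranged from 6.51 to 6.77 in the high set and from 6.55 to 6.76 in the low set and differed by -0.02 ± 0.08 (adjusted p = 0.970), a value whose sign turned under cyclic loess. CPT1A, the liver form, differed by 0.14 ± 0.12 (adjusted p = 0.673). The uncoupling proteins, whose genes respond to fasting and fatty acids in muscle, lay on the lower side, UCP2 at -0.39 ± 0.15 (adjusted p = 0.243) and UCP3 at -0.30 ± 0.15 (adjusted p = 0.416). Of 21 PPAR and fasting response targets tested, 14 were higher and 7 lower with PDK4, with a median of 0.06. That list also holds the regulators PPARA, PPARD and PPARGC1A themselves. Only PPARGC1A passed between the sets, beside 0.132% of all genes, and PPARGC1A and CD36 passed over all arrays, beside 2.03%. ANGPTL4, a well-known member of this list, was not analysed here.

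The regulators known to act on PDK4 gave mixed values. NR3C1, the glucocorticoid receptor, ranged from 5.86 to 7.05 (median 6.09) against 4.73 to 5.95 (median 5.44), a difference of 0.76 ± 0.19 (adjusted p = 0.0926), and it rose over all arrays with a slope of 0.49 ± 0.11 (adjusted p = 0.0214); 2 of its 3 probe sets had this direction. In the list of glucocorticoid targets, which includes NR3C1, 12 of 26 genes were higher and the median was -0.02. NR3C1 alone of the 26 passed over all arrays, beside 2.03% of all genes. PPARA, the fatty acid receptor, differed by 0.37 ± 0.17 (adjusted p = 0.332), and PPARD, the PPAR that predominates in muscle, by -0.10 ± 0.16 (adjusted p = 0.872), a sign that turned when arrays were centred on their medians. FOXO1 differed by 0.16 ± 0.15 (adjusted p = 0.726). Of 30 FOXO targets and atrophy genes, 22 were higher and 8 lower, beside 47.9% of all genes higher. Their median of 0.08 turned to -0.02 with the leading axis as a covariate. MSTN, the growth inhibitor myostatin, was the only one of the 30 to pass over all arrays, beside 2.03% of all genes. Its slope was 0.42 ± 0.10 (adjusted p = 0.0356), but its signal lay below the background mean.

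Of the 7 genes for subunits of the energy sensor AMPK, 2 rose with PDK4 over all arrays. PRKAA2, its catalytic α2 subunit, ranged from 8.54 to 9.06 (median 8.82) in the high set and from 7.73 to 8.71 (median 8.29) in the low set. It differed by 0.55 ± 0.13 (adjusted p = 0.0924), and its slope of 0.36 ± 0.08 passed (adjusted p = 0.0230). PRKAB2, the β2 subunit, had a slope of 0.27 ± 0.07 (adjusted p = 0.0403). The other subunits, given to complete the complex, differed by 0.67 (PRKAG2), 0.36 (PRKAA1), 0.04 (PRKAG3), -0.13 (PRKAG1) and -0.28 (PRKAB1), and none of these passed. PRKAA2 and PRKAB2 were the only ones of the 24 insulin and AMPK signalling genes to pass over all arrays, beside 2.03% of all genes; 14 of the 24 were higher with PDK4, with a median of 0.14 that turned to -0.06 with the leading axis as a covariate. Among 31 PGC-1 and nuclear receptor regulators the median was -0.02, with 14 higher. TFAM, the activator of mitochondrial DNA transcription, rose over all arrays with a slope of 0.31 ± 0.07 (adjusted p = 0.0263). TFAM and PPARGC1A were the only ones of the 31 to pass that test, beside 2.03% of all genes. PPARGC1B, a relative of PPARGC1A with a signal below the background mean, differed by -0.35 ± 0.09 (adjusted p = 0.10).

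**Figure D3:**
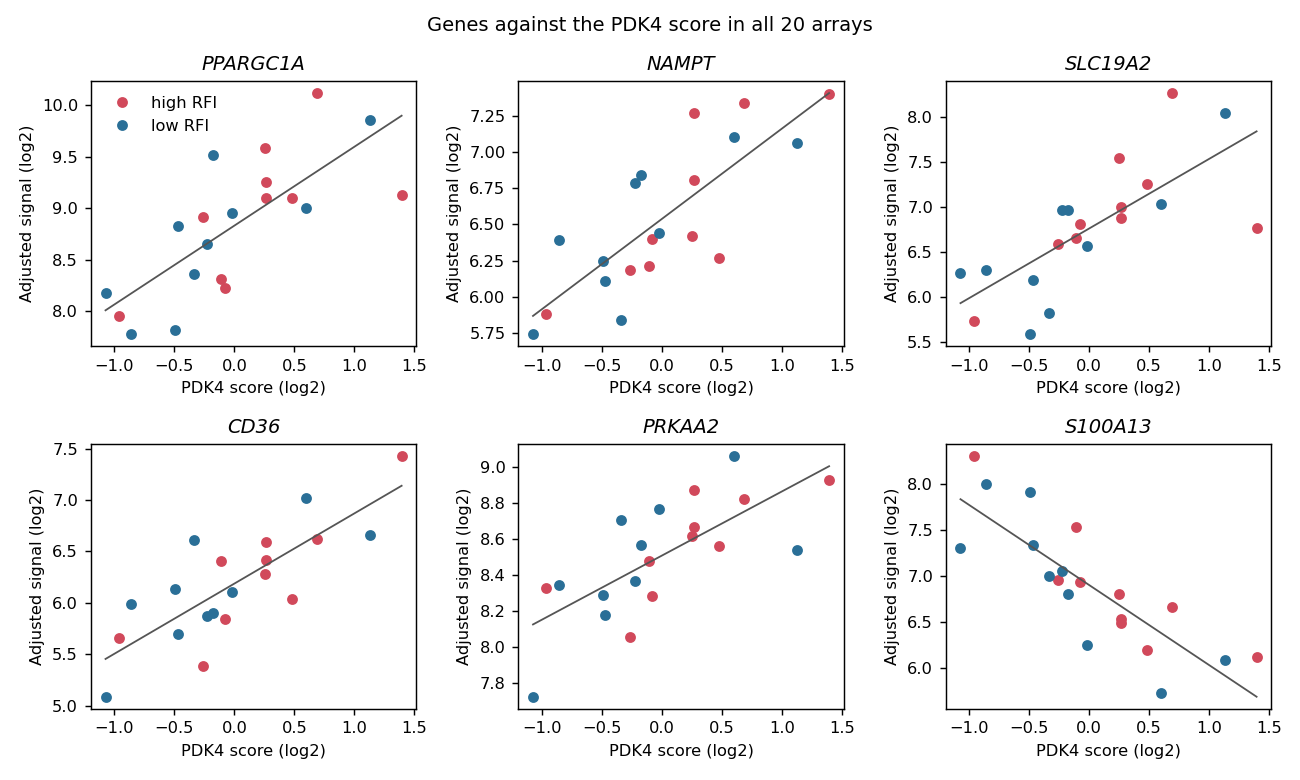
Background-adjusted signal (log2) of PPARGC1A, NAMPT, SLC19A2, CD36, PRKAA2 and S100A13 against the PDK4 score (log2), 1 point per array, 10 low RFI and 10 high RFI, with the regression line over the 20 arrays. The first 5 rise with the score and S100A13 falls (r = -0.83); points of both RFI groups lie along each line.

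No gene of the pyruvate dehydrogenase complex and none of its other kinases passed. PDK1, a kinase induced by hypoxia, ranged from 5.12 to 6.13 (median 5.63) in the high set and from 5.10 to 5.47 (median 5.28) in the low set, with 6 of 7 high arrays above every low array, and differed by 0.34 ± 0.12 (adjusted p = 0.234). PDK2 differed by -0.16 ± 0.14 (adjusted p = 0.697) and PDK3 by -0.15 ± 0.14 (adjusted p = 0.731), the latter with 2 of 5 probe sets in that direction. DLD and DLAT, the E3 and E2 enzymes of the complex, differed by 0.41 ± 0.15 (adjusted p = 0.230) and 0.37 ± 0.15 (adjusted p = 0.262). Of the 10 genes of this list tested, 6 were higher, with a median of 0.11, and none passed either test. Medians close to 0 had no stable sign: those of the glucocorticoid, PGC-1, glycogen, TCA cycle, antioxidant and complexes III to V lists turned under at least 1 other scaling of the arrays, and those of the glycolysis, fast fibre, mitochondrial carrier and lipid droplet lists under another scaling or another covariate.

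No gene of glucose uptake and glycolysis passed either. Of 20 genes, 11 were higher and 9 lower, the median was 0.02, and 0 had an unadjusted p under 0.05 between the sets. Glycogen genes went both ways, with 7 of 19 higher and none past the threshold. PPP1R3A, which anchors the glycogen phosphatase in muscle, stood at 0.70 ± 0.23 (adjusted p = 0.180) and GYS1, muscle glycogen synthase, at -0.25 ± 0.10 (adjusted p = 0.279). In the TCA cycle, 7 of 17 genes were higher, with a median of -0.02. SUCLG2, the GTP-forming subunit of succinyl-CoA synthetase, rose over all arrays with a slope of 0.33 ± 0.08 (adjusted p = 0.0233). It was the only one of the 17 to pass that test, beside 2.03% of all genes.

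The respiratory chain lists gave medians of 0.06 for the 25 genes of complex I, 16 of them higher, and of 0.01 for the 18 genes of complexes III to V, 9 of them higher; no gene of either list passed between the sets or over all arrays. With the leading axis as a covariate these medians turned to -0.09 and -0.12. Of 6 genes of ketone body metabolism, 5 were higher, with a median of 0.20, -0.05 with the leading axis as a covariate, and none past either threshold. Among 30 genes of amino acid catabolism 20 were higher, with a median of 0.07 that turned to -0.09 with the leading axis as a covariate, and 2 passed over all arrays, beside 2.03% of all genes. PCCA, a subunit of propionyl-CoA carboxylase, which handles carbon from valine and isoleucine, was 1 of them (slope 0.41 ± 0.09, adjusted p = 0.0226); the other was ALDH6A1, also of valine breakdown, named after its values were seen. Fatty acid and sterol synthesis had 6 of 18 genes higher, a median of -0.07 and none past either threshold.

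Of the function lists, slow fibre had the largest share of higher genes, 12 of 13, with a median of 0.21, but no member passed. CASQ2, the slow form of the calcium store protein calsequestrin, ranged from 6.59 to 7.57 (median 7.11) in the high set and from 6.08 to 7.04 (median 6.43) in the low set, a difference of 0.55 ± 0.15 (adjusted p = 0.122). The mean level of the 13 genes ranged from 8.66 to 9.68 in the high set and from 8.45 to 9.46 in the low set, so that the sets overlapped widely, and with the leading axis as a covariate the median turned to -0.10. Fast fibre genes had a median of 0.02, with 10 of 14 higher. MYH1, the myosin of IIx fibres, differed by -0.35 ± 0.13 (adjusted p = 0.243).

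Of 28 proteasome genes, 23 were higher with PDK4, beside 47.9% of all genes, and 2 passed over all arrays, beside 2.03%. The median was 0.12, and 0.02 with the leading axis as a covariate. PSME4, a proteasome activator, was 1 of the 2, with a slope of 0.40 ± 0.10 (adjusted p = 0.0445), although only 1 of its 2 probe sets had this direction; the other, PSMC2, was named after its values were seen. In the integrated stress and unfolded protein response 6 of 21 genes were higher, with a median of -0.07. DNAJB9, a co-chaperone of the endoplasmic reticulum, rose over all arrays (slope 0.38 ± 0.07, adjusted p = 0.0070), and SHMT2, the mitochondrial serine hydroxymethyltransferase, fell (slope -0.34 ± 0.09, adjusted p = 0.0486). No other of the 21 genes passed over all arrays, where 2.03% of all genes did. NFE2L2, the regulator of antioxidant genes known as NRF2, rose over all arrays (slope 0.36 ± 0.09, adjusted p = 0.0461), while 8 of the 24 antioxidant genes were higher, with a median of -0.03. NFE2L2 alone of the 24 passed over all arrays, beside 2.03% of all genes. Immediate early genes had a median of 0.02, which turned to -0.02 with RFI as a covariate, with 13 of 23 higher. They went both ways, with differences from -0.60 to 0.74, and FOS stood at -0.60 ± 0.20 (adjusted p = 0.180). In the lists not yet given the medians were 0.13 for hypoxia response, 0.07 for circadian clock, 0.06 for heat shock and folding, -0.01 for mitochondrial carriers and -0.10 for lipid droplets and lipases, and no gene of these passed between the sets or over all arrays.

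**Figure D4:**
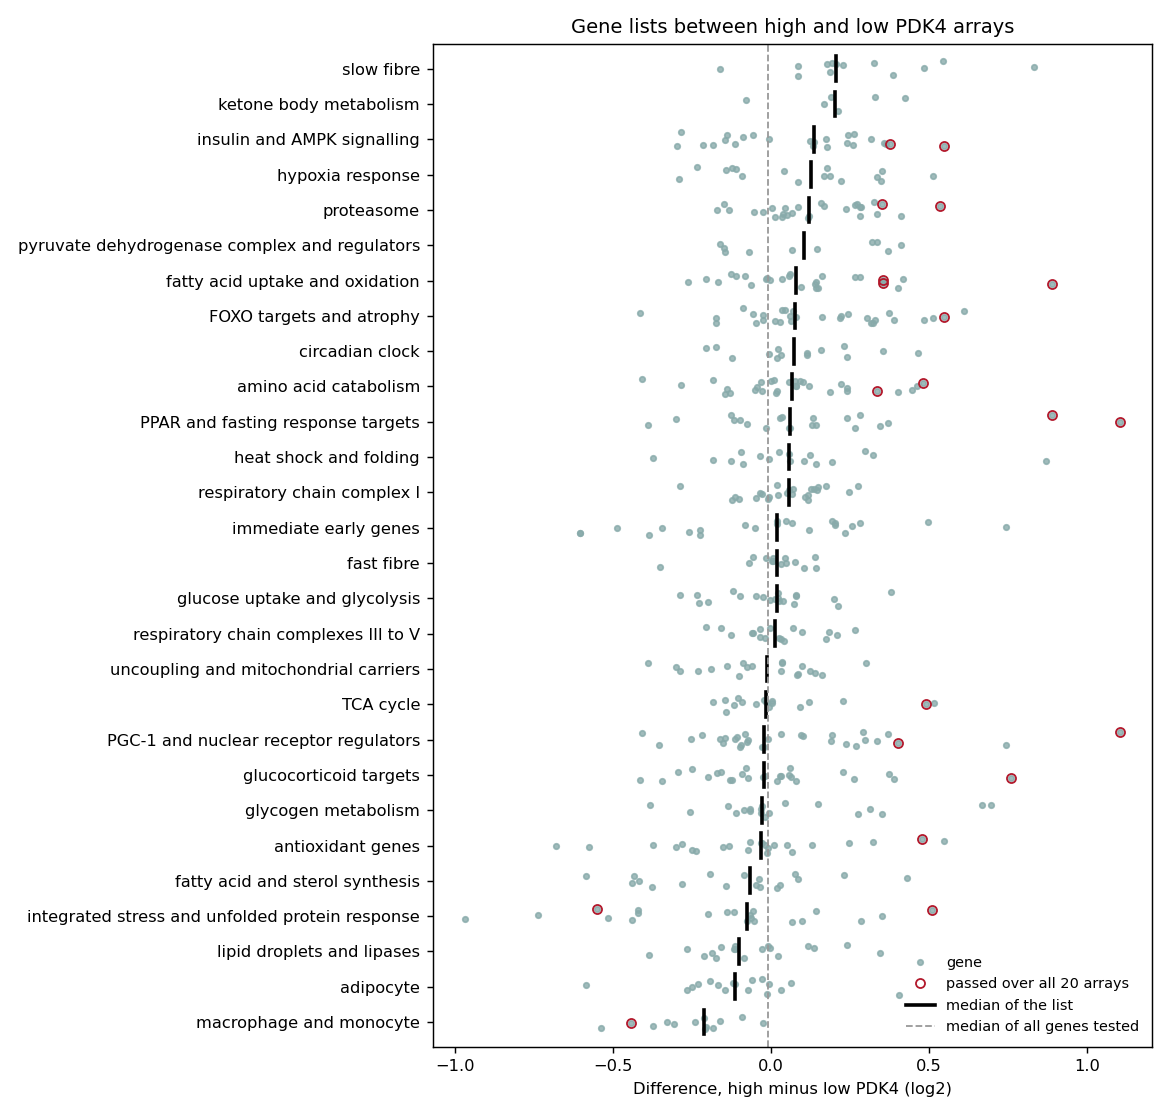
Difference between high and low PDK4 arrays (log2) of the genes in each function list and in the macrophage and adipocyte marker lists, 1 point per gene, with the list median as a black bar and genes that passed over all 20 arrays circled. The dashed line is the median of all tested genes; the lists run from macrophage markers at -0.21 to slow fibre genes at 0.21.

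Few markers of other cells passed a test. All 13 macrophage and monocyte markers tested were lower in the high set, whereas 47.9% of all genes were higher. The median of the 13 was -0.21, and 3 of them lay below the background mean. Their mean level ranged from 4.82 to 5.18 in the high set and from 4.98 to 5.55 in the low set. TYROBP, an adaptor of myeloid receptors, fell over all arrays (slope -0.30 ± 0.08, adjusted p = 0.0493). It was 1 of the 13 to do so, beside 0.561% of all genes, and none of the 13 passed between the sets. Of 16 endothelial markers 5 were higher. Only 1 of them, VWF, the von Willebrand factor, fell over all arrays (slope -0.27 ± 0.07, adjusted p = 0.0475), beside 0.561% of all genes. Of 15 fibroblast and tendon markers 10 were lower, with a median of -0.08. That median was -0.24 without the 4 arrays of highest background and -0.01 with RFI as a covariate. Of the 15, 3 were lower with an unadjusted p under 0.05, beside 6.2% of all genes. Some members of the list, COL1A1, COL1A2, COL3A1, COL5A1 and COL6A3, lay between -0.36 and -0.28, whereas 5 of the 15 were higher, up to 0.27. COL1A2 stood at -0.33 ± 0.12 (adjusted p = 0.219) and COL3A1 at -0.31 ± 0.12 (adjusted p = 0.258). With RFI as a covariate COL1A2 stood at -0.21 (adjusted p = 0.42) and COL3A1 at -0.19 (adjusted p = 0.51). Smooth muscle and pericyte markers had 6 of 11 higher, with a median of 0.02 that turned to -0.04 when the arrays were centred on their medians. RGS5, a regulator of G protein signalling in pericytes, stood at 0.65 ± 0.25 (adjusted p = 0.245). Adipocyte markers had 3 of 17 higher and a median of -0.11, which turned to 0.02 when the arrays were centred on their medians and to 0.08 with RFI as a covariate. Their mean level spanned 5.77 to 6.70 in the high set and 5.84 to 6.90 in the low set. The medians of the remaining cell types were -0.11 for satellite cell, -0.08 for T and NK cell, -0.05 for neutrophil and mast cell, -0.03 for nerve, 0.02 for red blood cell (-0.06 with the arrays centred on their medians) and 0.08 for B and plasma cell markers. No marker of these cell types passed between the sets or over all arrays. The part of these cells in the gene differences was not tested, and in a bulk sample fewer cells of a type and less RNA per cell cannot be told apart. The fast fibre genes, which mark the pig's longissimus, had a mean level from 12.1 to 12.3 in both sets, far above the background mean.

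By likeness over the 20 arrays, measured as Pearson r with the score and given as a description, the genes nearest to PDK4 were MAPK6 (r = 0.88), CCT6A (r = 0.87), FILIP1 (r = 0.84) and PRNP, the prion protein (r = 0.84). MED13 of the Mediator complex (r = 0.82), LRRC2 (r = 0.81), the ubiquitin ligase subunit ASB4 (r = 0.81) and DNAJB9 (r = 0.80) came next. The genes that ran most against PDK4 were NES, the intermediate filament nestin (r = -0.86), TSC22D1 (r = -0.84), S100A13 (r = -0.83) and S100A16 (r = -0.82), a second S100 calcium-binding protein. NES ranged from 6.08 to 6.94 (median 6.51) in the high set and from 6.67 to 7.75 (median 7.33) in the low set, with 6 of 7 high arrays below every low array (difference -0.75 ± 0.17, adjusted p = 0.0817). Over all arrays NES fell with a slope of -0.60 ± 0.08 (adjusted p = 0.000965). All these arrays share their background correction and the leading axis described above. Probe sets of a gene disagreed in direction for some of the genes named: 3 of 4 had the direction given for CPT1A, 2 of 4 for PRNP, 4 of 5 for NES and 7 of 8 for CD36.

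The relation was then read within each RFI group, where the RFI label is constant. For all 14 risers the slope on the score was above 0 in the 10 low RFI arrays and in the 10 high RFI arrays, and for both genes that fell it was below 0 in each; these are the same arrays that gave the 16 genes. Over all genes, 49.5% of slopes were above 0 in low RFI and 48.1% in high RFI. PPARGC1A had a slope of 0.83 ± 0.19 in low RFI and 0.70 ± 0.22 in high RFI, SLC19A2 of 0.86 ± 0.20 and 0.64 ± 0.24, and S100A13 of -0.96 ± 0.19 and -0.91 ± 0.16. With 10 arrays a group, 2 genes passed within low RFI (0.0165%), IGFN1 and MYO10, both with slopes below 0 and both named after their values were seen. IGFN1, a sarcomere-associated protein, had a slope of -0.79 ± 0.11 and MYO10, an unconventional myosin, of -0.93 ± 0.13 (adjusted p = 0.0352 for each), beside -0.56 ± 0.15 and -0.35 ± 0.33 in high RFI. Within high RFI 0 genes passed limma's test, where the smallest adjusted p was 0.0515 and 1300 genes had an unadjusted p under 0.05 (5.45% of all with slopes above 0 and 5.28% below). A direct test of whether slopes differed between the groups called 0 genes (577 with an unadjusted p under 0.05, 2.31% in one direction and 2.45% in the other), and the smallest unadjusted p of that test among the 16 genes was 0.114. Of the 16 genes, 12 passed between the sets with RFI as a covariate; the others were LRRC2 and SLC19A2 (adjusted p = 0.0509 each), PPARGC1A, and LMOD3 (adjusted p = 0.0713).

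The 6 middle arrays took no part in the comparison of the sets. Within their narrow range of score, 8 of the 14 risers had a slope above 0, beside 49.6% of all genes, and both genes that fell had a slope below 0.

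**Figure D5:**
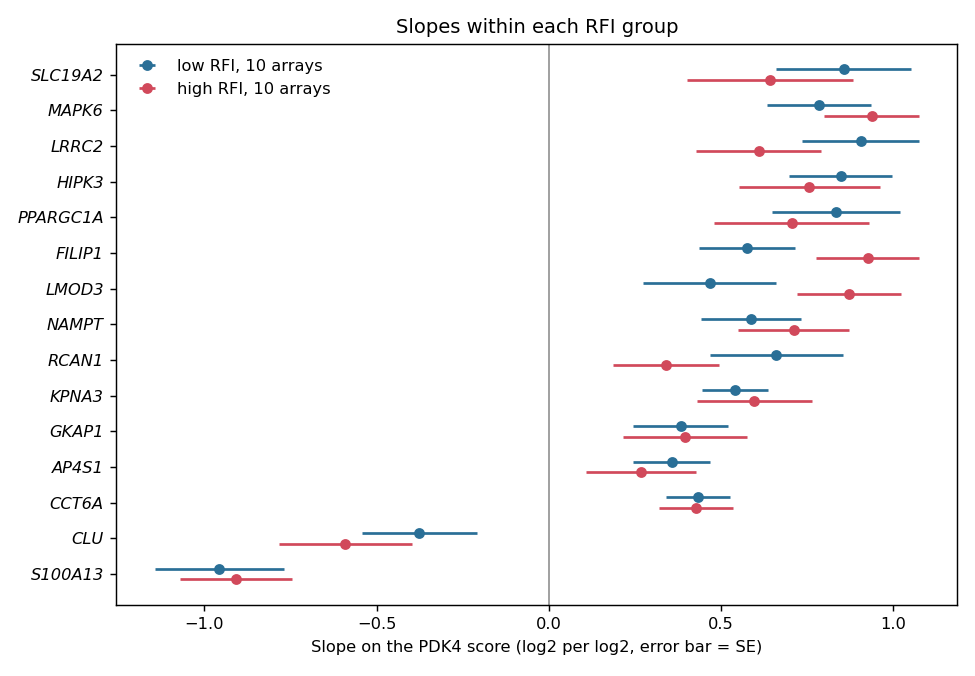
Slope of 15 of the 16 genes on the PDK4 score (log2 per log2) within the 10 low RFI arrays (blue) and the 10 high RFI arrays (red), with error bars of 1 SE. The 13 risers shown lie above 0 and CLU and S100A13 below 0 in each group, and the error bars of the groups overlap for every gene other than FILIP1 and LMOD3.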

How the data were processed

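The values were the deposited log2 signals per probe set of 20 single-colour arrays; the summary, background correction and normalization by the authors are not given in the sources used here, and the submitters' processing notes name GCOS 1.1.1. Of 47845 probe sets, 123 were controls and 26426 had 1 gene symbol; 412 named after microRNAs were left out. Of 13541 genes, each its probe set of highest mean, 12118 with a mean above the 30th percentile of the probe sets (1.75) were tested, PDK4 excluded, and 70.6% of them lay above the background mean. Every gene was regressed on array background over the 20 arrays. Sets and slopes were fitted to the residuals with limma 3.58.1 (lmFit, eBayes) in R 4.3.3, 2-sided, with Benjamini-Hochberg adjustment over all tested genes; slopes are log2 per log2 unit of score. In data simulated for 14 arrays, 46%, 93% and 99% of 200 shifts of 0.5, 1 and 1.5 were recovered. False calls numbered 0, 10 and 10 at these shifts. Whether these rates hold for the real arrays, with their leading axis of variation, was not tested. Permutation tests (100000 resamples) used scipy 1.17.1, and figures matplotlib 3.10.9 in Python 3.11.15. The number of arrays limits the precision, and p-values treat the ranking as given although it was read from the same arrays.

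Named were the 12 genes a direction of smallest p above the background mean, the 5 largest past the threshold, at most 3 members of a function list and 2 of a cell type list with unadjusted p under 0.05, the 8 genes most alike and 4 most opposite to PDK4, and known PDK4 regulators whatever their value; some so chosen are left out for brevity, and 1 of the 16 genes that passed is not reported here. The members and the 26 function and 11 cell type lists were chosen with earlier results of these data known. Of 743 listed genes, 122 were not named on the array and are not analysed here. No sequences or positions were used.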

Additional observations from a re-analysis of the deposited data

Results flagged for a closer look

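Among the genes named above, 9 of 120 sets of 7 arrays had 1 array far from the others, the gap to its nearest neighbour being more than 0.568 of the set's range; chance gives this in about 1 in 20 sets. In the low PDK4 arrays LRRC2 was lowest in low RFI replicate 8 (5.11, next 6.06), HADHA highest in low RFI replicate 5 (9.45, next 8.70), FOS highest in high RFI replicate 9 (9.19, next 8.81) and VWF highest in high RFI replicate 4 (6.76, next 6.27). In the high PDK4 arrays AP4S1 was lowest in high RFI replicate 2 (3.42, next 3.77), NR3C1 highest in high RFI replicate 8 (7.05, next 6.21), MYH1 lowest in low RFI replicate 10 (11.27, next 11.78), PPARA highest in high RFI replicate 1 (7.56, next 7.05) and UCP3 lowest in high RFI replicate 3 (6.69, next 7.26). No array carried more than 1 of these values.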

How the results depend on the processing

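The count of 16 genes between the sets was within 1.5 times of itself with 5 arrays a side, median centring, cyclic loess, a background, poly-A spike or RFI covariate, the mean of a gene's probe sets, or no filter on low values. It was 0 with 10 arrays a side, the exact rank sum test (its p-values being coarse with 7 arrays a side), the leading axis as a covariate, no regression on background, and the other PDK4 probe set. It was 26 over all probe sets, 25 over genes above the background mean, 4 without the 4 arrays of highest background, and 2250 with arrays ranked on the deposited PDK4 signal without regression. Leaving out 1 array gave 2 to 174 genes: 2 without low RFI replicate 1, 3 without high RFI replicate 4, 8 without low RFI replicate 6 or 8, 9 without high RFI replicate 3, 10 without high RFI replicate 2 or low RFI replicate 10, 30 without low RFI replicate 9, 86 without high RFI replicate 7 and 174 without low RFI replicate 5. Over 20 arrays the 246 became 160 with background as a covariate in the same fit, 20 without the highest and lowest scores, 0 with the other probe set and 2999 without regression. Within low RFI the 2 became 0 in the contrast of its high and low PDK4 arrays, 1182 without regression and 1 with the other probe set; within high RFI the 0 became 1574 without regression and 1 with the other probe set. The cause of these changes was not tested.

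With sets from the other PDK4 probe set, most differences turned. They were -0.34 for FILIP1, -0.22 for MAPK6, -0.048 for NAMPT, -0.27 for RCAN1, -0.19 for HIPK3, -0.24 for LRRC2, -0.0069 for CCT6A, -0.43 for LMOD3, -0.20 for PPARGC1A, -0.17 for KPNA3, -0.21 for AP4S1, -0.15 for GKAP1, 0.022 for S100A13 and 0.38 for CLU. They were 0.14 for S100A16, 0.017 for TSC22D1, 0.13 for NES, -0.064 for PRNP, -0.17 for MED13, -0.066 for ASB4, -0.14 for DNAJB9, -0.37 for CD36, 0.095 for UCP2, 0.0039 for UCP3, -0.095 for HADHA, -0.056 for DLD, -0.047 for DLAT, 0.094 for PDK2, -0.31 for PPP1R3A and 0.16 for GYS1. They were -0.15 for MSTN, -0.37 for NR3C1, -0.31 for PRKAA2, 0.17 for PPARGC1B, -0.011 for TFAM, -0.096 for FOXO1, -0.14 for CPT1A, 0.021 for CPT1B, 0.41 for FOS, 0.33 for SHMT2, -0.33 for PSME4, 0.17 for TYROBP, -0.15 for PRKAG2, 0.029 for COL1A2, 0.049 for COL3A1 and -0.19 for RGS5.

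Elsewhere 16 values turned. With arrays ranked on the deposited signal PPARGC1B stood at 0.18, MYH1 at 0.31, PDK3 at 0.32 and CPT1A at -0.043. With the leading axis as a covariate PSME4 stood at -0.089, PDK2 at 0.080, FOXO1 at -0.080 and PPARD at 0.17. PPARD was also 0.025 with 5 arrays a side and 0.036 with median centring, and PDK3 was 0.048 as a mean of probe sets. CPT1B was 0.023 with 10 arrays a side, 0.019 with cyclic loess and 0.030 without the 4 arrays of highest background; leaving out 1 array gave it -0.037 to 0.0060, with the sign turned without high RFI replicate 9 (0.0015) and low RFI replicate 10. Of 1766 values of named genes, 1470 kept direction and side of the threshold, 184 no longer passed and 50 newly passed. No paired analysis was possible because the labels give no replicate numbers; those used here only name the arrays within a group and pair none.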
